A study of Mus musculus with 4 samples.

Results

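The 10 genes described here are transcription factors and RNA-binding proteins best known from pluripotent cells: Nanog, Pou5f1 (Oct4), Sox2, Klf4, Lin28a, Lin28b, Sall4, Zfp42 (Rex1), Esrrb and Tbx3. They were chosen by symbol, 10 of the 24487 rows of a deposited expression table, each with a single row of its own. The cells were mesenchymal stem/progenitor cells (MSPC), the adherent stromal cells that grow out of mouse bone marrow, at passages 5 to 10 in MesenCult medium. RNA sequencing gave 2 libraries of Asxl1-/- cells and 2 libraries of wild-type (WT) cells, both on a C57BL/6 background, and no other allele or agent is named. The title of the series sets the question of self-renewal and cell fate after the loss of Asxl1, a chromatin regulator of the Polycomb and BAP1 system. Nothing in the labels ties a library to an animal of its own, and the p-values below therefore measure the spread between these samples, which may be technical. The labels also do not say how the Asxl1 allele was made or in which cells it was deleted.

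In embryonic stem cells Pou5f1 and Sox2 bind DNA side by side, and with Nanog they keep their own genes and many others switched on. LIF signalling reaches this circuit through Klf4 and Tbx3, Esrrb is a further activator in it, Sall4 works with Pou5f1 and Nanog, Zfp42 is a widely used marker of it, and the Lin28 proteins block maturation of the let-7 microRNAs. Klf4 and Tbx3 also have roles in differentiated tissues. Adult stromal cells renew themselves without being pluripotent, so the level of each of these genes in MSPC is a question for measurement.

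The upstream sequences of these genes differ in base composition and motifs, and 4 of them are printed. These are the 3 that held an octamer core and that of Klf4, which held the most GC boxes. Of the 10 genes, 8 matched a RefSeq promoter (GRCm38.p6, the same assembly as the mm10 of the files) within 50 bp of the start in the files. The Tbx3 and Sall4 promoters are not shown. Each sequence gives the 250 bases before the start, 5′ to 3′ on the gene's own strand. Capitals mark the octamer core TTTGCAT and the Sox core ACAATG on either strand in the first 3 sequences, and the GC box GGGCGG on either strand in Klf4. The first run of capitals in Klf4 is 2 GC boxes that overlap by 1 base.

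Nanog (chr6:122707239-122707488, plus strand): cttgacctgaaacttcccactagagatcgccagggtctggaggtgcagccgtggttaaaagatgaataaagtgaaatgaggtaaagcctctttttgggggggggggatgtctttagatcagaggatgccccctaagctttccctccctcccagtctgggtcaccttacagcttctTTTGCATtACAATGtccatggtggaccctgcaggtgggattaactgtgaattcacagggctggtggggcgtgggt
Sox2 (chr3:34649745-34649994, plus strand): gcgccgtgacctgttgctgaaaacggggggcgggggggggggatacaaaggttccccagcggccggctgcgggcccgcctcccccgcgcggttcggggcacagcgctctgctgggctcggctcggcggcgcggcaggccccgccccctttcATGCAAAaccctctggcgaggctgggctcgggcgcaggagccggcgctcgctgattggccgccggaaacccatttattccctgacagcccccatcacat
Zfp42 (chr8:43307010-43307259, minus strand): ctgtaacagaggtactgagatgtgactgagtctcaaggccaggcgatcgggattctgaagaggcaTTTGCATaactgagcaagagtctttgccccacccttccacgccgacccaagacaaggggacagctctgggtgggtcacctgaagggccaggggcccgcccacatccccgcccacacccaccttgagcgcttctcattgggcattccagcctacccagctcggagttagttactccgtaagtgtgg
Klf4 (chr4:55532476-55532725, minus strand): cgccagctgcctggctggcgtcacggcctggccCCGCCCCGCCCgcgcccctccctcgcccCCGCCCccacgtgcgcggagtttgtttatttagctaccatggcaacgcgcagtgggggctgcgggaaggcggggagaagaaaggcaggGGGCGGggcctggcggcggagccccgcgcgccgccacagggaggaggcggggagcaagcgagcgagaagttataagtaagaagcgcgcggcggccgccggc

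The Nanog sequence held the octamer core and the Sox core 1 base apart. The octamer core alone was found in 4.12% of 32851 RefSeq promoters, the Sox core in 10.7% and both together in 0.642%. Sox2 and Zfp42 each held 1 octamer core. The Klf4 sequence held 4 GC boxes, a motif found in 32.7% of promoters. Sox2 and Zfp42 held 2 each, left in lower case above, and Pou5f1, not printed, held 1. Lin28a, also not printed, held 1 Sox core. The Klf4 ratio of observed to expected CpG was 0.941, higher than in 91.0% of promoters. The Nanog ratio was 0.182 and that of Zfp42 0.423, with a median of 0.373 over all promoters, while Sox2, listed at 0 in every library below, had a ratio of 0.833. These matches describe letters only, not bound sites.

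The labels of the libraries were checked on Asxl1, which stood at 0.273 and 0.312 FPKM in Asxl1-/- cells and at 14.6 and 11.2 FPKM in WT cells. FPKM are fragments per length of transcript, scaled to the mapped fragments of the library. On the log2(FPKM + 1) scale, which understates differences of low values, Asxl1 differed by -3.41 (standard error 0.29). The limma adjusted p for Asxl1 was itself 0.215. The authors' Cuffdiff comparison, by contrast, marked Asxl1 as significant (q = 0.00836). Its group values were 0.367 FPKM in Asxl1-/- and 14.9 FPKM in WT, a log2 ratio of -5.34. Of 14 stromal markers, 13 averaged at least 1 FPKM over the 4 libraries, among them Col1a1, Prrx1 and Pdgfrb. Lepr reached at most 0.0426 FPKM in any library. Not all of the 13 were high throughout. Nt5e stood at 0.493 and 0.507 FPKM in Asxl1-/- cells and at 2.31 and 7.19 FPKM in WT cells. Eng stood at 0.906 and 0.571 FPKM in Asxl1-/- cells and at 10.7 and 0.912 FPKM in WT cells. Pdgfra stood at 58.8 and 63.0 FPKM in Asxl1-/- cells and at 80.9 and 4.78 FPKM in WT cells. The cultures also held macrophage transcripts in unequal amounts. The 13 macrophage markers with a row summed to 81.3 and 367 FPKM in Asxl1-/- cells and to 7.33 and 543 FPKM in WT cells. In Asxl1-/- replicate 1 the single gene Fcer1g made up 72.2 of the 81.3 FPKM, and Ptprc, the pan-leukocyte CD45 gene, was at 0.00740 FPKM there. Both replicates 2 were thus high in macrophage markers. All 10 germ cell markers stayed under 1 FPKM in every library. In bulk RNA, fewer cells of a type and less RNA per cell cannot be told apart.

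The number of reads is not given in the sources used here, but the low FPKM values carry it. A gene with 1 annotated transcript and few fragments shows values that are whole multiples of what 1 fragment is worth. From these steps the FPKM scale corresponds to about 27300000 and 25400000 fragments in the Asxl1-/- libraries and to about 26500000 and 26100000 in the WT libraries. Of values under 5.5 fragments in transcripts of at least 1500 bp, between 74.5% and 81.3% per library fell within 0.15 of a whole number. These include the genes of 1 fragment that set the estimate, so the share is not an independent check. WT replicate 2 stood apart in another way. Rows spanning under 300 bp took 22.6% and 21.4% of the FPKM sum in Asxl1-/- cells and 24.9% and 40.9% in WT cells. Precision for the lowest genes below is therefore set by a handful of fragments, and limits drawn from it cover counting error only.

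**Figure D1:**
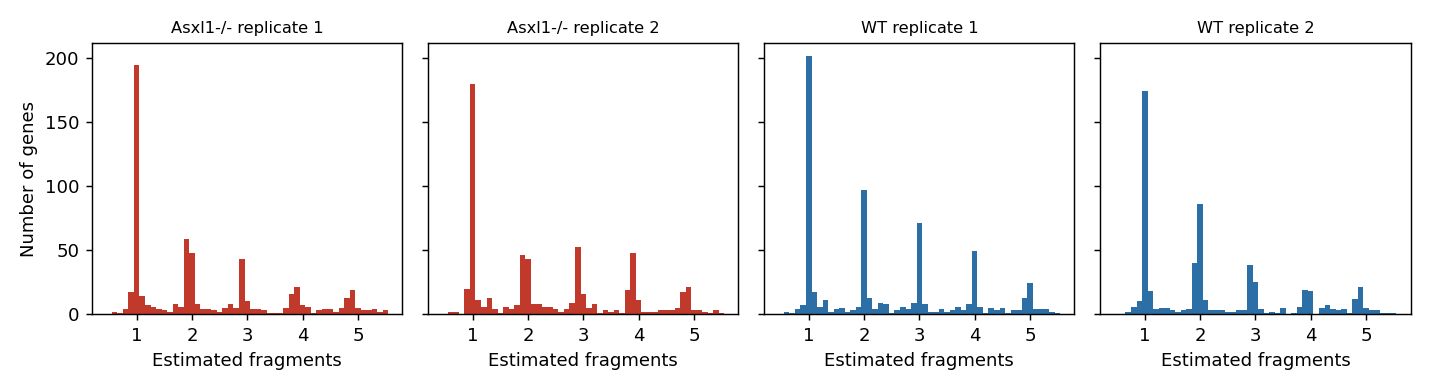
Number of genes (y axis) by estimated number of fragments (x axis, 0.1 per bar) in each library, for genes with 1 annotated transcript of at least 1500 bp. The bars pile up near whole numbers, in all 4 libraries.

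The 10 factors fell into 3 tiers. Klf4 and Tbx3 were well above 1 FPKM on average, Nanog was detected in every library at a low level, and the other 7 were at or close to 0. Of these 7, Sox2, Lin28a, Lin28b, Sall4 and Zfp42 were listed at 0 in all 4 libraries, 5 of the 10 factors, whereas 29.0% of all rows of the table were at 0 throughout. On the per-length FPKM scale the lowest Klf4 library (13.1) lay above the highest Tbx3 library (12.5). The lowest Tbx3 library (1.27) lay above the highest Nanog library (1.02), and the lowest Nanog library (0.166) above the only Pou5f1 value (0.0484). Pou5f1, Esrrb and the 5 genes at 0 cannot be ordered.

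**Figure D2:**
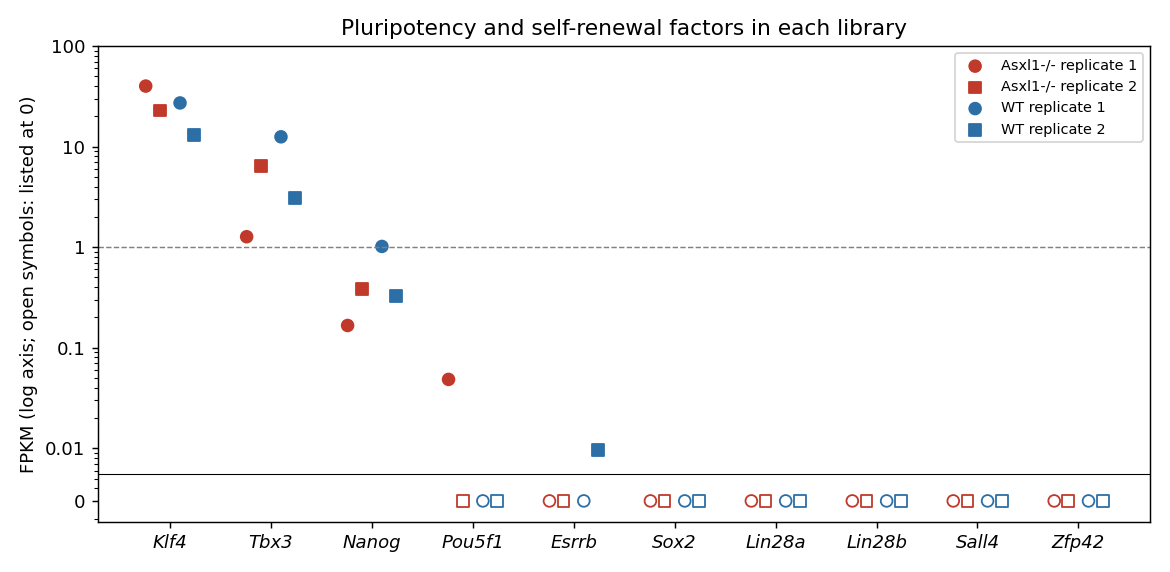
FPKM (log axis) of the 10 factors in each library, with Asxl1-/- in red left of WT in blue. Filled symbols are values above 0, open symbols on the lowest line are listed at 0, and the dashed line marks 1 FPKM. Klf4 (13.1 to 39.9) and Tbx3 (1.27 to 12.5) stand above the line in every library, and the groups overlap for both.

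Pou5f1, the POU factor at the centre of the pluripotency circuit, had 0.0484 FPKM in Asxl1-/- replicate 1, while Asxl1-/- replicate 2 and both WT libraries listed it at 0. With its transcript of 1362 bp the single value is worth 1.40 fragments. No library thus held more than a trace of Pou5f1, and no level can be compared between the groups.

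Esrrb, an orphan nuclear receptor that can stand in for Nanog in mouse embryonic stem cells, was listed at 0 in both Asxl1-/- libraries and in WT replicate 1. In WT replicate 2 it stood at 0.00965 FPKM, which is worth 1.01 fragments with its longest coding transcript of 4300 bp. Like Pou5f1, it was seen in 1 library only.

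Sox2, the HMG-box partner of Pou5f1, was listed at 0 in both Asxl1-/- and both WT libraries. For its transcript of 2057 bp, 3 fragments would have read 0.0626 and 0.0675 FPKM in the Asxl1-/- libraries and 0.0627 and 0.0648 FPKM in the WT libraries. This was taken as about the level a 0 still allows. All 20 genes of a housekeeping set were above 0 in every library, the lowest value being 9.71 FPKM. That is far above the Sox2 limits, so the set does not show whether a low transcript would be listed at 0.

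The RNA-binding proteins Lin28a and Lin28b were listed at 0 in all 4 libraries. With 3 fragments again taken as the limit, a count of 0 allows about 0.0370 FPKM of Lin28a, the highest limit over the libraries. For Lin28b, whose transcript of 5402 bp is longer, it allows about 0.0232 FPKM. Such limits are approximate, as they rest on estimated fragment totals and GENCODE lengths. Sall4, a zinc finger factor of embryonic stem cells and spermatogonia, and Zfp42, a zinc finger gene derived from Yy1 and used as a marker of naive pluripotency, were also listed at 0. Their limits were at most 0.0531 and 0.0822 FPKM with the shortest coding transcripts. A level below these limits could be present and still be listed at 0.

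Nanog, the homeobox factor that lets mouse embryonic stem cells renew without LIF, was the only member of the core triad with values in all 4 libraries. Its row spans chr6:122707489-122714633 (mm10). It stood at 0.166 and 0.381 FPKM in Asxl1-/- cells and at 1.02 and 0.326 FPKM in WT cells. WT replicate 1 was the highest, and WT replicate 2 lay between the Asxl1-/- libraries, so the groups overlapped. With coding transcripts of 1995 to 2211 bp, these values are worth 7.69 to 8.68 and 16.3 to 18.4 fragments in Asxl1-/- cells and 46.9 to 52.7 and 14.6 to 16.4 fragments in WT cells. The means were 0.274 ± 0.152 FPKM in Asxl1-/- cells and 0.671 ± 0.488 FPKM in WT cells (SD, n = 2 each).

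Nanog averaged under 1 FPKM and so did not enter the main test. In a limma fit without that filter it differed by -0.37 (SE 0.25) on the log2(FPKM + 1) scale, with an adjusted p of 0.813. Within WT the libraries differed 3.11-fold, more than the difference of the group means. Without WT replicate 1 the log2 fold change was -0.06. In the authors' deposited table of group comparisons, Nanog stood at 0.344 FPKM in Asxl1-/- and 0.766 FPKM in WT, with a p of 0.342 and a q of 0.999. No other gene's transcript in GENCODE (release M21) matched any of the 10 factors over at least 300 bp at 90% identity, so no annotated near-copy was found that could share their reads.

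Klf4, a zinc finger factor that reprograms somatic cells together with Pou5f1, Sox2 and Myc and restrains proliferation in epithelia, was the most abundant of the 10, and its row spans chr4:55527137-55532475 (mm10). It stood at 39.9 and 22.8 FPKM in Asxl1-/- cells and at 27.1 and 13.1 FPKM in WT cells. Asxl1-/- replicate 1 was the highest and WT replicate 2 the lowest, and WT replicate 1 lay above Asxl1-/- replicate 2. The lowest library was thus the one with the largest share of FPKM in short rows. Between 79.9% and 92.6% of all rows lay below Klf4 in each library.

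The Klf4 means were 31.4 ± 12.1 FPKM in Asxl1-/- cells and 20.1 ± 9.93 FPKM in WT cells (SD, n = 2 each), a ratio of 1.56. Replicates differed by more than that, 1.75-fold within Asxl1-/- and 2.07-fold within WT. On the log2(FPKM + 1) scale the difference was 0.65 (SE 0.47), and the limma adjusted p of 0.752 missed the threshold of 0.05. With the libraries rescaled to the same FPKM sum over rows of at least 300 bp it was 0.69. Leaving out WT replicate 1 gave 1.15, leaving out Asxl1-/- replicate 2 gave 1.04, and leaving out WT replicate 2 or Asxl1-/- replicate 1 gave 0.15 and 0.26. In the authors' deposited table the log2 fold change of Klf4 was 0.77 with a p of 0.108 and a q of 0.898.

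The libraries were also split into those low and those high in macrophage markers, a split chosen after seeing the data. Klf4 was higher in Asxl1-/- both times. Among the libraries low in macrophage markers it stood at 39.9 FPKM in Asxl1-/- and 27.1 FPKM in WT, a ratio of 1.47. Among those high in them it stood at 22.8 FPKM in Asxl1-/- and 13.1 FPKM in WT, a ratio of 1.75. Each ratio sets 1 library against 1 library and carries no test. Macrophage marker sums differed within the pairs. In the low pair they were 81.3 FPKM in Asxl1-/- and 7.33 FPKM in WT. Fcer1g alone made up 72.2 of the 81.3 FPKM, so the gap in the low pair rests largely on 1 gene. In the high pair the sums were 367 FPKM in Asxl1-/- and 543 FPKM in WT. The other pairing reverses the order once, as Asxl1-/- replicate 2 (22.8 FPKM) lay below WT replicate 1 (27.1 FPKM). Genes of chromosome 4, which holds Klf4, were shifted, in the median and relative to the 4-library average, by -0.14 and -0.12 in Asxl1-/- and by 0.31 and -0.09 in WT on the log2 scale. The part of macrophage RNA and of chromosome-wide shifts in the Klf4 levels was not tested.

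Tbx3, a T-box repressor that sustains self-renewal in mouse embryonic stem cells and patterns limb and mammary gland, was the only other factor tested, with a row spanning chr5:119670862-119684724 (mm10). It stood at 1.27 and 6.36 FPKM in Asxl1-/- cells and at 12.5 and 3.08 FPKM in WT cells. Its highest and its second lowest value were both WT, and its lowest and second highest were both Asxl1-/-, so the groups were interleaved. The libraries differed 9.84-fold from lowest to highest, a wider range than that of Klf4 (3.05-fold).

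The Tbx3 means were 3.81 ± 3.60 FPKM in Asxl1-/- cells and 7.78 ± 6.66 FPKM in WT cells (SD, n = 2 each). Replicates differed 5.01-fold within Asxl1-/- and 4.06-fold within WT, against a ratio of the means of 0.490. On the log2(FPKM + 1) scale the difference was -0.86 (SE 0.83), with a limma adjusted p of 0.814. The authors' deposited table gave Tbx3 a log2 fold change of -0.89, a p of 0.157 and a q of 0.995.

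The direction of the Tbx3 difference rested on single libraries. Without WT replicate 1 the log2 fold change was 0.0036, and without Asxl1-/- replicate 1 it was -0.01. Among the libraries low in macrophage markers Tbx3 stood at 1.27 FPKM in Asxl1-/- and 12.5 FPKM in WT, a ratio of 0.102. Among those high in them it stood at 6.36 FPKM in Asxl1-/- and 3.08 FPKM in WT, a ratio of 2.07. Nanog had ratios of 0.164 and 1.17 in the same settings. Genes of chromosome 5, which holds Tbx3, were shifted by -0.10 and -0.0017 in Asxl1-/- and by 0.22 and -0.17 in WT. The part of macrophage RNA in the Tbx3 and Nanog levels was not tested.

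**Figure D3:**
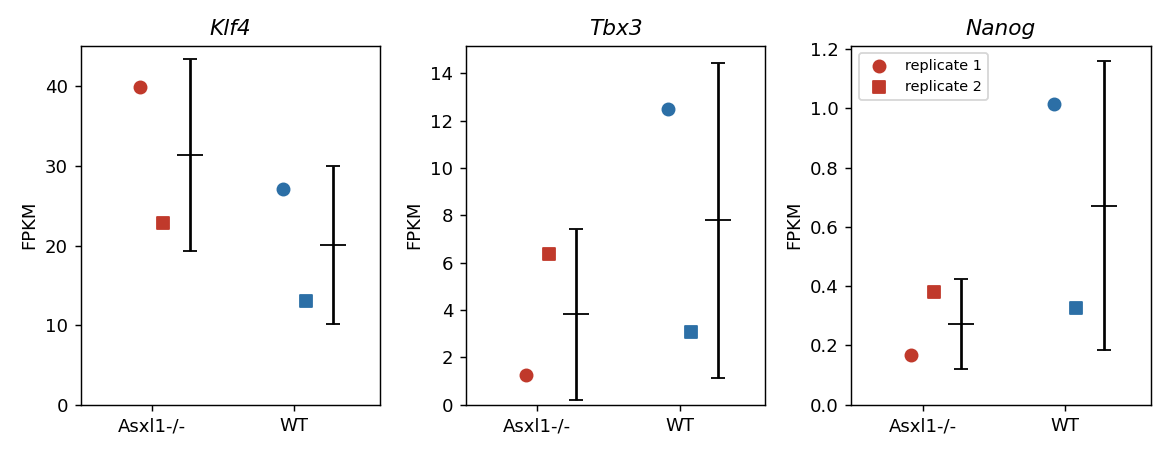
FPKM of Klf4, Tbx3 and Nanog in Asxl1-/- (red, left) and WT (blue, right), each on an axis from 0. Circles are replicate 1, squares replicate 2, and the black marks give the mean and SD of 2 libraries. The groups overlap in all 3 panels, and WT replicate 1 is highest for Tbx3 (12.5) and Nanog (1.02).

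Of the 10 factors, 2 entered the test and 0 were called in either direction by limma at an adjusted p under 0.05. The share called among all 11485 genes tested was 0.0261%, so a count of 0 among 2 says little. At an unadjusted p under 0.05 the count was also 0, where 7.91% of genes tested reached it. The groups separated without overlap for 0 of the 2, against 40.8% of genes tested, 15.6% with both Asxl1-/- libraries higher and 25.2% with both lower. The authors' deposited table tested 3 of the 10 factors, Klf4, Tbx3 and Nanog, and marked 0 as significant, against 0.939% of all genes it tested. An exact permutation test on 2 against 2 libraries cannot give a two-sided p below 0.333.

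The genes whose profiles over the 4 libraries lay nearest to Klf4 were Pop4, Pvrl2 and Ctsl. Likeness was the root mean square distance between log2(FPKM + 1) values after centring each gene on its mean, 0.08 for Pop4, 0.09 for Pvrl2 and 0.09 for Ctsl. Ctsl, the gene of the lysosomal protease cathepsin L, stood at 430 and 240 FPKM in Asxl1-/- cells and 333 and 159 FPKM in WT cells, the same order of libraries as Klf4. Of 10852 named genes searched, 23 lay within 0.2 of Klf4. Tbx3 had 3 within that distance, Pcyt1b at 0.13, Rgs10 at 0.18 and the fibrillar-associated collagen gene Col12a1 at 0.20. Col12a1 stood at 27.9 and 108 FPKM in Asxl1-/- cells and 217 and 74.7 FPKM in WT cells. With 4 libraries such nearness is a description only.

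Relatives of the 10 factors ranged from abundant to undetected. In the Klf family, zinc finger factors that bind GC-rich DNA, 11 of the 16 relatives of Klf4 averaged at least 1 FPKM. Klf6, an immediate early member, was the highest at 44.8 and 50.3 FPKM in Asxl1-/- cells and 56.4 and 31.3 FPKM in WT cells. Klf2, which overlaps in function with Klf4 in mouse embryonic stem cells, stood at 13.1 and 29.1 FPKM in Asxl1-/- cells and 16.1 and 9.09 FPKM in WT cells. Klf4 and Klf2 thus differed in the Asxl1-/- library that was higher. Klf9, a glucocorticoid-responsive member, stood at 32.8 and 9.39 FPKM in Asxl1-/- cells and 3.78 and 11.6 FPKM in WT cells. Klf13 stood at 2.00 and 5.24 FPKM in Asxl1-/- cells and 6.82 and 5.11 FPKM in WT cells, and Klf11 at 1.48 and 3.12 FPKM in Asxl1-/- cells and 5.83 and 2.66 FPKM in WT cells. Of the 11 tested relatives 0 passed the limma test in either direction and 0 separated without overlap, where 0.0261% of all genes tested passed and 40.8% separated. Their median log2 fold change was 0.17, against -0.07 for all genes tested, and was -0.10 without WT replicate 2 and 0.51 without WT replicate 1.

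Among 18 relatives of Sox2, 4 averaged at least 1 FPKM and 5 were listed at 0 throughout, among them Sox1 and Sox3, the closest to Sox2. Sox4, which shares sequence with the annotated non-coding RNA Gm26735 and is a broadly expressed SoxC factor, stood at 30.5 and 43.7 FPKM in Asxl1-/- cells and 46.8 and 19.8 FPKM in WT cells. Sox9, the regulator of cartilage formation, stood at 5.96 and 8.61 FPKM in Asxl1-/- cells and 11.9 and 9.25 FPKM in WT cells. It was lower in both Asxl1-/- libraries, as were 25.2% of all genes tested (log2 fold change -0.49, limma adjusted p = 0.697). Sox12 stood at 6.70 and 3.72 FPKM in Asxl1-/- cells and 17.0 and 3.77 FPKM in WT cells. Sox13 stood at 2.44 and 1.41 FPKM in Asxl1-/- cells and 0.297 and 1.56 FPKM in WT cells. None of the 4 passed, where 0.0261% of all genes tested did, and 2 fold changes were positive and 2 negative. Their median of -0.12 changed sign without WT replicate 1 (0.25) or Asxl1-/- replicate 1 (0.07).

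Among 16 T-box relatives, 3 averaged at least 1 FPKM, and 6 were listed at 0 throughout. Tbx2, the closest relative of Tbx3, stayed between 0.0440 and 0.154 FPKM over the 4 libraries. Tbx15, a regulator of skeletal and adipose development, stood at 32.7 and 10.1 FPKM in Asxl1-/- cells and 57.4 and 38.6 FPKM in WT cells. It was lower in both Asxl1-/- libraries, as were 25.2% of all genes tested (log2 fold change -1.31, standard error 0.60, limma adjusted p = 0.632). Tbx18, a marker of mural progenitors, stood at 4.21 and 28.6 FPKM in Asxl1-/- cells and 10.4 and 18.7 FPKM in WT cells, with no separation, and shares sequence with the annotated transcript D030062O11Rik. Mga, a T-box and Max-binding repressor, stood at 4.24 and 5.68 FPKM in Asxl1-/- cells and 9.09 and 4.46 FPKM in WT cells.

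Of 21 relatives of Sall4, Pou5f1, Esrrb and Zfp42, 6 averaged at least 1 FPKM. Yy1, the ubiquitous zinc finger gene related to Zfp42, stood at 30.2 and 29.8 FPKM in Asxl1-/- cells and 43.2 and 35.7 FPKM in WT cells. Sall2 stood at 7.86 and 6.66 FPKM in Asxl1-/- cells and 9.23 and 10.8 FPKM in WT cells, and Pou6f1 at 3.80 and 6.00 FPKM in Asxl1-/- cells and 6.03 and 7.34 FPKM in WT cells. All 3 were lower in both Asxl1-/- libraries, as were 25.2% of all genes tested, and they are named for their small p. Of the 6, 0 passed, where 0.0261% of all genes tested did. The limma adjusted p was 0.713 for Yy1, 0.695 for Sall2 and 0.759 for Pou6f1. Yy2 lay between 1.77 and 4.65 FPKM over the 4 libraries, the groups overlapping, but shares exon sequence with Mbtps2 in GENCODE, so its level is uncertain.

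Of 44 other genes of the pluripotency network, 18 averaged at least 1 FPKM. The chromatin helicase gene Chd4 was the highest, at 47.2 and 56.4 FPKM in Asxl1-/- cells and 56.8 and 56.3 FPKM in WT cells. Another 12 were listed at 0 throughout, including Dppa3, Dppa5a, Fgf4, Nr0b1, Tdgf1, Utf1 and Otx2, which mark naive or primed pluripotent cells. The remaining 14 stayed under 1 FPKM in every library. Of the 18 tested, 0 passed limma in either direction, where 0.0261% of all genes tested passed. Fold changes were positive for 6 and negative for 12. The median was -0.13, and 0.05 without WT replicate 1. The cell cycle factor Mybl2 stood at 1.72 and 1.33 FPKM in Asxl1-/- cells and 6.35 and 2.46 FPKM in WT cells. Nacc1, a BTB factor of the Nanog interactome, stood at 21.4 and 22.4 FPKM in Asxl1-/- cells and 31.5 and 30.0 FPKM in WT cells. Both were lower in both Asxl1-/- libraries, as were 25.2% of all genes tested, with a limma adjusted p of 0.632. Each has an annotated pseudogene of over 97% identity that could share reads. The telomere and replication timing factor Rif1 stood at 4.47 and 3.11 FPKM in Asxl1-/- cells and 8.32 and 4.35 FPKM in WT cells.

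The LIF axis, by which LIF acts through Lifr, Il6st and Stat3 on Klf4 in mouse embryonic stem cells, was expressed. Of its 16 genes 14 were tested, 10 with positive and 4 with negative fold changes. In either direction 0 passed limma, where 0.0261% of all genes tested did. The median was 0.21, and 0.44 without WT replicate 1. Osmr, the oncostatin M receptor, stood at 79.8 and 84.1 FPKM in Asxl1-/- cells and 42.8 and 57.1 FPKM in WT cells (log2 fold change 0.72, standard error 0.26, limma adjusted p = 0.617). Stat3 stood at 51.2 and 73.7 FPKM in Asxl1-/- cells and 43.6 and 44.8 FPKM in WT cells. Both were higher in both Asxl1-/- libraries, as were 15.6% of all genes tested, without passing. The shared receptor subunit Il6st stood at 79.5 and 212 FPKM in Asxl1-/- cells and 207 and 99.2 FPKM in WT cells. The cytokine gene Il6 stood at 2.41 and 13.3 FPKM in Asxl1-/- cells and 3.19 and 0.765 FPKM in WT cells. Pim3, a kinase gene induced by Stat3, stood at 9.04 and 4.05 FPKM in Asxl1-/- cells and 18.8 and 7.52 FPKM in WT cells.

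Although both Lin28 genes were at 0, 20 of 22 genes of the Lin28 and let-7 axis were tested. Igf2bp3, an oncofetal RNA-binding protein gene repressed by let-7, stood at 13.0 and 11.9 FPKM in Asxl1-/- cells and 5.20 and 3.67 FPKM in WT cells. Its replicates were close, and it was higher in both Asxl1-/- libraries, as were 15.6% of all genes tested. The log2 fold change of 1.32 with a standard error of 0.26 had a limma adjusted p of 0.503. In the authors' deposited table Igf2bp3 had a p of 0.0027 and a q of 0.155, short of significance. Igf2bp3 shares exon sequence with a transcript of Malsu1 in GENCODE, so part of its reads is uncertain.

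Msi1, a Musashi RNA-binding protein gene of neural stem cells, stood at 0.473 and 0.630 FPKM in Asxl1-/- cells and 2.61 and 2.68 FPKM in WT cells (log2 fold change -1.23, standard error 0.35, limma adjusted p = 0.558). Arid3a stood at 4.26 and 2.95 FPKM in Asxl1-/- cells and 0.789 and 1.88 FPKM in WT cells. Khsrp, which promotes let-7 processing and has an annotated pseudogene (Gm8602), stood at 23.3 and 22.4 FPKM in Asxl1-/- cells and 39.9 and 29.1 FPKM in WT cells. The chromatin protein gene Hmga1 was the highest of the list, at 135 and 14.6 FPKM in Asxl1-/- cells and 155 and 95.9 FPKM in WT cells, and cannot be told apart from the near-identical Hmga1b. Over the list 0 passed limma, where 0.0261% of all genes tested did. There were 6 positive and 14 negative fold changes. Their median was -0.18, which was -0.04 without WT replicate 1 and -0.41 without WT replicate 2.

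Of 20 regulators of adult stem cell self-renewal, 19 were tested. In either direction 0 passed limma, where 0.0261% of all genes tested did. Twist1, a mesenchymal bHLH factor, stood at 11.9 and 9.67 FPKM in Asxl1-/- cells and 30.1 and 17.2 FPKM in WT cells (log2 fold change -1.02, standard error 0.34, limma adjusted p = 0.605). Lgr5, a receptor gene of the Wnt pathway that marks epithelial stem cells, stood at 5.11 and 6.49 FPKM in Asxl1-/- cells. It was listed at 0 in WT replicate 1 and stood at 3.16 FPKM in WT replicate 2. Myc and the methyltransferase gene Ezh2 were lower in both Asxl1-/- libraries, as were 25.2% of all genes tested. Their log2 fold changes were -1.42 and -1.29, with limma adjusted p of 0.620 and 0.553. Prrx1, a mesenchymal homeobox factor and the highest of the list, stood at 207 and 91.1 FPKM in Asxl1-/- cells and 111 and 272 FPKM in WT cells. Fold changes were positive for 7 and negative for 12 of the 19, with a median of -0.31, which was -0.08 without Asxl1-/- replicate 1 and -0.56 without WT replicate 2.

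Taking the 8 lists as 170 distinct genes, 92 were tested and 0 passed limma, where 0.0261% of all genes tested passed. At that share a count of 0 says little. An unadjusted p under 0.05 was reached by 6, or 6.52%, where 7.91% of all genes tested reached it. The groups did not overlap for 31, or 33.7%, against 40.8% of all genes tested. The authors' deposited table of comparisons tested 101 of the 170 and marked 0 as significant, against 0.939% of all genes it tested.

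**Figure D4:**
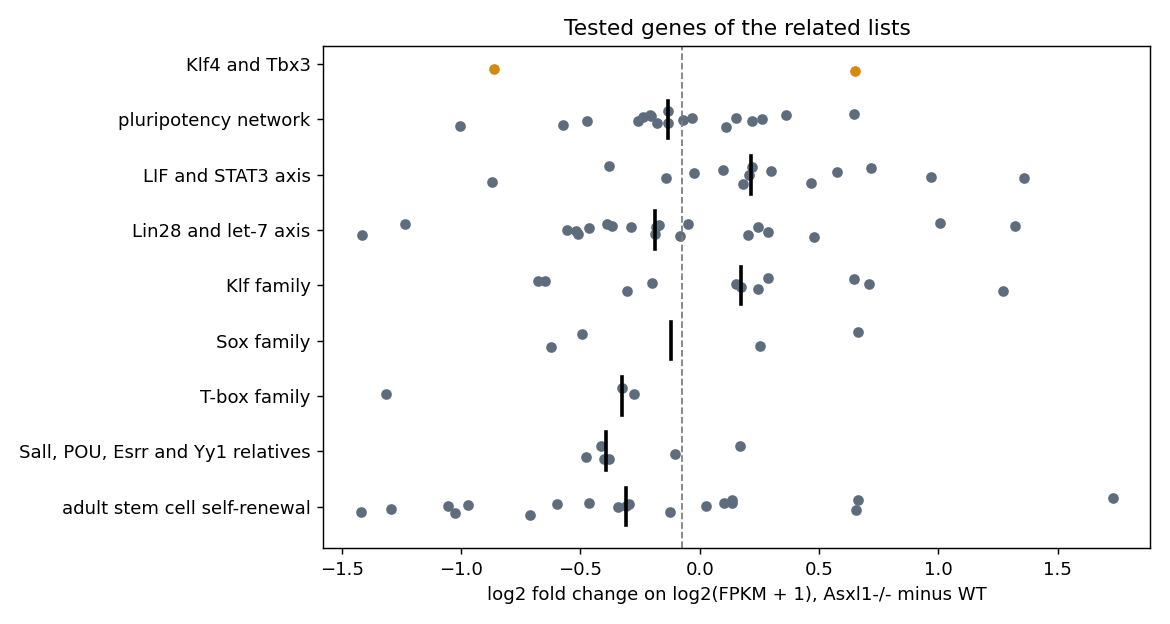
Log2 fold change on the log2(FPKM + 1) scale (x axis, Asxl1-/- minus WT) of each tested gene of the 8 related lists and of Klf4 and Tbx3 (top line). Black bars are list medians, from -0.39 for the relatives of Sall4, Pou5f1, Esrrb and Zfp42 to 0.21 for the LIF axis, and the dashed line is the median of all genes tested (-0.07).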

How the data were processed

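Per the labels, RNA of 4 MSPC cultures was sequenced after Trizol extraction. Per the submitters' processing notes, the authors worked on mm10 with Cuffdiff, Cufflinks (version 2.2.1) and TopHat2 (version 2.0.3). Gene annotation and library strand were not given in the sources used here. The authors deposited FPKM per library and a table of the group comparison holding each group's FPKM, its log2 fold change (Asxl1-/- over WT), p-values and q-values. The group FPKM there are not the means of the library FPKM. Another 2 per-sample columns matched none of the samples and were not used. The deposited log table was not used.

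Genotype labels set the groups, and accession order the replicate numbers. The test was limma's (version 3.58.1, in R version 4.3.3), with a trended eBayes, run on log2(FPKM + 1). Rows with a mean of at least 1 FPKM entered, 11485 in all, and p-values were adjusted by Benjamini-Hochberg at 0.05. FPKM are not counts, so no count test was run. Such fold changes understate those of low genes. Fragments were estimated from steps of low FPKM, by regressing the inverse FPKM of single-fragment genes on GENCODE length. Near-copies were searched with blastn (version 2.17.0). Motifs were searched as exact letters on both strands.

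The fitting code was run on simulated data of a set spread, which tests the code and not what this design can detect. The 10 factors and the lists were chosen with earlier results of these data known. Named are all factors, up to 4 tested genes of each of the 8 related lists with the smallest p, its highest gene, and the 3 genes nearest to each tested factor. A few genes of low level (Tbx2, Sox1, Sox3 and those listed at 0) and the cell type markers given as examples were named after their values were seen. Alternatives covered pseudocounts, filters, scaling, eBayes settings, each library left out and symbols summed over rows. The comparisons within the libraries low, and within those high, in macrophage markers were added after seeing the data.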

Additional observations from a re-analysis of the deposited data

How the results depend on the processing

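With 2 libraries a group, limma could not tell the differences seen in these genes from replicate spread. The limit is not confined to small differences, as Asxl1 itself had a limma adjusted p of 0.215. It is a limit of the limma test, since the authors' Cuffdiff comparison marked Asxl1 as significant (q = 0.00836). Of the 10 factors, 0 were called by limma under any of 14 other settings. The Klf4 log2 fold change stayed positive under all of them and ran from 0.15 to 1.15 with 1 library left out. That of Tbx3 ran from -1.72 to 0.0036 with 1 library left out, and was 0.0036 without WT replicate 1 and 0.85 between the libraries high in macrophage markers, against -2.57 between those low in them. Leaving out a library leaves 1 sample in a group, which is then assumed to vary like the other group. The number of factors without overlap, 0 with all libraries, ran from 0 to 2 in those fits, since 1 library overlaps less readily. Genes called over the whole table numbered 3 (0 higher and 3 lower), 1 with no filter on low values, and 1 to 8 with 1 library left out. The Nanog value of -0.37 became -0.95 with a pseudocount of 0.1. At a mean of at least 5 FPKM Nanog has no value. Of the 8 list medians, 3 changed sign with 1 library left out, those of the pluripotency network, the Sox family and the Klf family, as given beside each list. The Sox median was also 0.0032 with no filter. The T-box median ran from -0.77 to -0.15 with 1 library left out, and the median for the relatives of Sall4, Pou5f1, Esrrb and Zfp42 was -0.03 with no filter. Median ratio scaling and quantile normalization left the signs of Klf4 and Tbx3 as they were. No paired analysis was possible because the labels give no replicate numbers that the groups share.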

Other observations

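Some other embryonic or germline regulators, but not all, were, like Nanog, highest in WT replicate 1. They were chosen after their values were seen. Dnmt3l, the germline partner of the DNA methyltransferases, stood at 0.0256 and 0.0552 FPKM in Asxl1-/- cells and at 0.876 and 0.0433 FPKM in WT cells. Trim71, a let-7 target, was at 0 and 0.00796 FPKM in Asxl1-/- cells and at 0.327 and 0 FPKM in WT cells. The T-box gene Eomes stood at 0.0107 and 0.0461 FPKM in Asxl1-/- cells and at 0.932 and 0.0880 FPKM in WT cells. Sox11, a SoxC factor of embryonic tissues, stood at 0.227 and 0.187 FPKM in Asxl1-/- cells and at 1.98 and 0.573 FPKM in WT cells. Over the 52 factors and list genes that averaged above 0 and under 1 FPKM, 19 (36.5%) were highest in WT replicate 1. A further 16 (30.8%) were highest in WT replicate 2. Over all 5892 such rows spanning at least 300 bp, 30.0% were highest in WT replicate 1 and 32.0% in WT replicate 2. Germ cell markers peaked elsewhere for the most part, Sycp3, Dnd1 and Nanos3 in Asxl1-/- replicate 2 and Dazl and Zbtb16 in WT replicate 2. Ddx4 peaked in WT replicate 1 (0.0446 FPKM). Nanos3 was nearly level, at 0.0798 FPKM in Asxl1-/- replicate 2 and 0.0776 FPKM in WT replicate 2. Sycp3 shares sequence with Chpt1 in GENCODE, so its level is uncertain. No difference between the groups was tested for these genes.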
